A study of Mus musculus with 54 samples.

Results

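The transcripts described here come from 7 mouse genes of the smooth muscle contractile apparatus: Acta2, Tagln, Cnn1, Cnn2, Myl9, Tpm1 and Tpm2. They were chosen by name, as 7 of the 20036 genes measured, and all 7 passed the filter on low values that left 14416 genes for testing. Levels were followed from embryonic stem cells (ESC) through epiblast-like cells (EpiLC) to cells resembling primordial germ cells, taken on day 2 (PGCLC), a culture model of how the germ line is set aside. Each of 9 lines was sampled at the 3 stages with 2 poly(A) RNA-seq libraries per group, giving 54 libraries in 27 groups. The lines are wild type (WT), 4 lines tagged as mutants or TKO, which are Ovol1KO, Ovol2KO, Ovol3KO and TKO, and 4 lines tagged as overexpressing (OE), which are Cdh1-Tg, Ovol2a-Tg, Ovol2b-Tg and the combined line Ovol2a/2b-Tg. All carry the same strain label, C57BL/6 X 129/SvJ. TKO is not spelled out, and the genetic background of the Tg lines, the promoters that drive the transgenes, the number of clones and the culture additives are not stated in the labels or series text used here. Nothing in the labels says that the 2 libraries of a group came from separate cultures, so p-values measure the spread between these libraries, which may be technical.

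Smooth muscle contracts when myosin pulls on filaments of actin, and the 7 genes encode parts or regulators of that machine. Acta2 encodes smooth muscle alpha-actin. Tagln (transgelin, SM22-alpha) and the calponins Cnn1 and Cnn2 encode proteins that bind actin filaments, Myl9 encodes a regulatory light chain of myosin II, and the tropomyosins Tpm1 and Tpm2 lie along the actin filament and govern the access of myosin. Many of these genes are activated by serum response factor (SRF) with its cofactors of the myocardin and MRTF family, which bind CArG boxes. None is restricted to smooth muscle: they are also active in fibroblasts, in spreading or migrating cells and in early mesoderm. The 3 Ovol genes encode zinc finger proteins that bind DNA and are known for keeping cells epithelial, and Cdh1 encodes E-cadherin, the adhesion protein of epithelia.

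Short stretches around SRF-type and TEAD-type motifs before annotated transcript starts are shown because these are the elements through which this gene class is usually described. Sequences are from RefSeq (GRCm38.p6), which gave a promoter for 6 of the 7 genes. The 250 bases before each start were searched on both strands for the CArG box (2 C, 6 bases that are A or T, 2 G), for the CArG box with 1 G or C among those 6, for the TEAD-type MCAT motif GGAATG and for the motif CCGTTA. The motif stands in capitals with 10 bases on each side, read 5′ to 3′ on the gene's strand.
Acta2, MCAT, chr19:34255504-34255529: gcagaacagaGGAATGcagtggaaga
Acta2, CArG with 1 G or C, chr19:34255438-34255467: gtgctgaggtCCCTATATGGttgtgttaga
Acta2, CArG with 1 G or C, chr19:34255388-34255417: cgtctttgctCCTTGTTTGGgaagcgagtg
Cnn2, CArG, chr10:79988534-79988563: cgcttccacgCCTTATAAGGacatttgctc
Myl9, CArG, chr2:156775293-156775322: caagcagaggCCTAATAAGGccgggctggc
Myl9, CArG with 1 G or C, chr2:156775355-156775384: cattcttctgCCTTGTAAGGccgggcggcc
Tpm1, MCAT, chr9:67049254-67049279: gctgtcctaaGGAATGcggtcgcccc

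Acta2 and Tpm1 lie on the minus strand, and Cnn2 and Myl9 on the plus strand. The Cnn2 and Myl9 stretches lie upstream of every exon in the GENCODE M21 annotation. Those of Acta2 and Tpm1 lie within an annotated exon and UTR of a longer transcript, and so inside the gene spans given below. A full CArG box was found in 2 of the 6 promoters, against 1.47% of 32851 RefSeq promoters searched in the same way, and the form with 1 G or C in 2 of 6, against 7.24%. MCAT was found in 2 of 6, against 12.6%, and CCGTTA in 0 of 6, against 2.18%. Cnn1 and Tpm2 held none of the 4 motifs in this window. These matches describe the letters of the window, not binding.

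On the chromosomes (GRCm38.p6) Acta2 spans chr19:34240336-34255585, Tagln chr9:45929628-45936058 and Cnn1 chr9:22099221-22109221. Cnn2 spans chr10:79988600-79995400, Myl9 chr2:156775408-156781657, Tpm1 chr9:67022590-67049672 and Tpm2 chr4:43513726-43523583. Of the 1988 exon bases of Tagln, 1241 overlap exons of Gm48529 and 108 overlap exons of Pcsk7, both on the opposite strand. No label states the strand setting of the counting, so part of the Tagln signal could belong to those genes. Actin genes are near-identical in their coding parts, and the treatment of reads that match several places is likewise not stated, so values of Acta2 and of its paralogs are uncertain to that degree.

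Levels are TPM, a length-scaled share of the mRNA that allows genes to be compared within a library. The depth, from whole reads recovered out of the TPM values, was a median of 8.65 M reads per library and ran from 2.16 to 26.73 M, with 8 libraries under 3 M. The stage labels were checked with markers: the summed TPM of 7 naive pluripotency genes was 1421 to 1901 in ESC and 52.2 to 205 in EpiLC, that of 4 formative genes was 74.9 to 336.2 in ESC and 1123 to 2447 in EpiLC, and that of 7 primitive streak and mesoderm genes was at most 20.5 before the PGCLC stage and 113.5 to 2897 there. The summed TPM of a list of 6 PGCLC markers was 929.3 to 1366 in ESC, 98.54 to 326.3 in EpiLC and 569.5 to 982.4 in PGCLC. That sum set PGCLC apart from EpiLC, but its range overlapped that of ESC. For 8 libraries the cell type tag differs from the title, and the title was used. Among the genes that the lines are named for, Ovol2 in PGCLC was 11.3 and 6.98 TPM in WT, 4.74 and 6.68 in Ovol2KO, 1.52 and 0.835 in TKO, 345 and 296 in Ovol2b-Tg, 900 and 867 in Ovol2a-Tg and 3403 and 3190 in Ovol2a/2b-Tg. In ESC and EpiLC, Ovol2 in Ovol2KO (14.1 to 34.6 TPM) was above WT (4.98 to 12.7 TPM), Ovol3 in Ovol3KO was 5.66 to 11.3 TPM over the 3 stages, and Ovol1 was at most 2.93 TPM in all 54 libraries. Gene-level values need not show a deletion, so the line names below are used as labels. Mean Cdh1 in PGCLC was 316 TPM in WT, 562 in Cdh1-Tg, 38.8 in Ovol2KO and 20.6 in TKO.

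As ESC, the WT line held little of 5 of them, while Cnn2 (30.3 and 27.7 TPM) and Tpm1 (27.8 and 31.4 TPM) made up 42.0% and 42.9% of the 7-gene total. From ESC to EpiLC, 6 of the 7 rose, with Myl9 in front. From EpiLC to PGCLC, 4 rose, with Tagln in front, and 3 of those 4 had also risen at the first step. The summed TPM of the 7 genes was 70.3 and 67.6 in WT ESC, 345.0 and 341 in WT EpiLC and 948 and 832 in WT PGCLC.

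**Figure D1:**
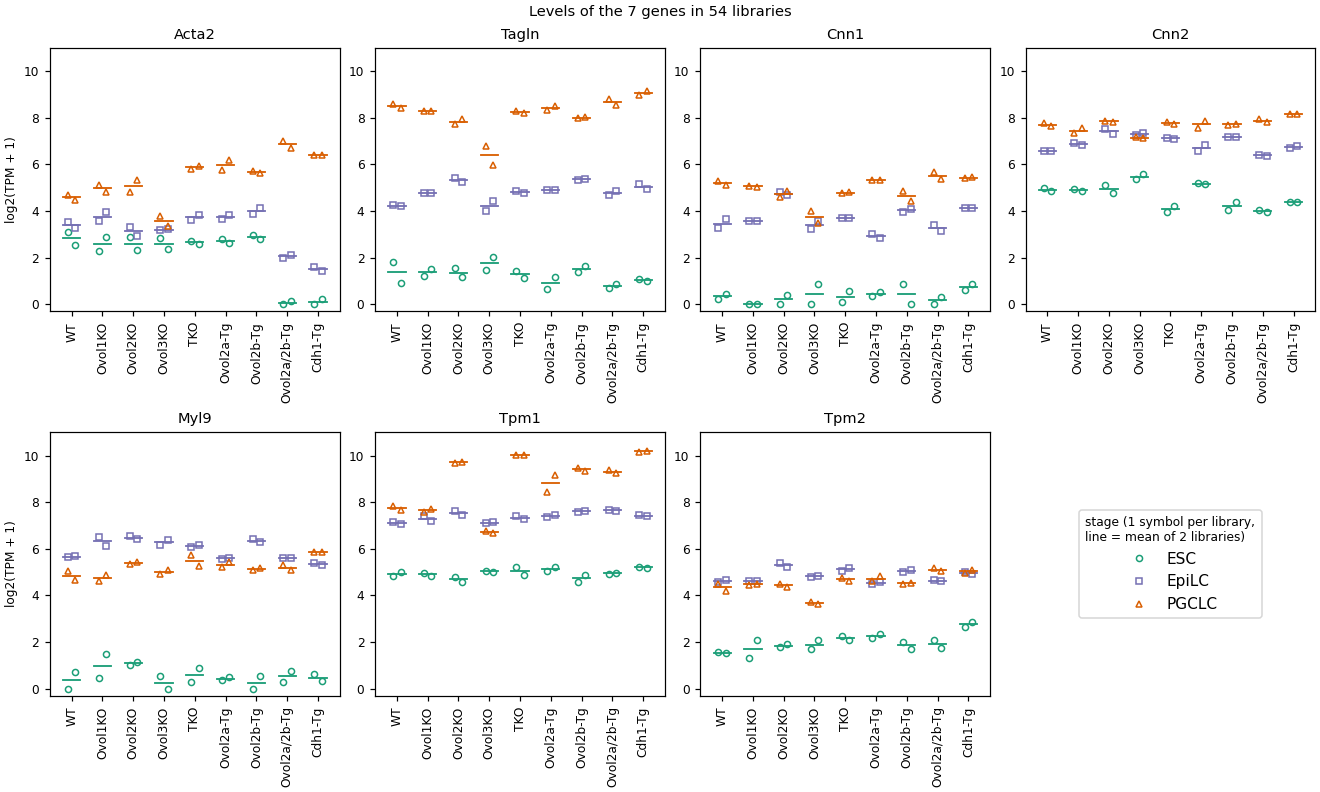
Level of each of the 7 genes as log2(TPM + 1) (vertical axes) in 9 lines (horizontal axes). ESC, EpiLC and PGCLC differ in colour and symbol, with 1 point per library and 2 libraries per group. Tagln climbs at both steps, Cnn1 climbs at the first and in Ovol2KO has equal means in EpiLC and PGCLC, Myl9 is near 0 in ESC and is higher in EpiLC than in PGCLC in most lines, and Tpm1 fans out between lines at PGCLC, from 103 to 1176 TPM.

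For the change from ESC to EpiLC the members were tested in a limma model of all 54 libraries on log2(TPM + 1). A gene was called when its Benjamini-Hochberg adjusted p over all 14416 genes was under 0.05 and its log2 fold change was at least 1 in size. By that rule 20.6% of all genes were called between WT ESC and WT EpiLC, in either direction, and the median log2 fold change was 2.86 over the members and -0.01 over all genes. Since 1 is added to each TPM, a fold change on this scale understates the change of a scarce gene.

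Myl9 was listed at 0 and 0.641 TPM in WT ESC, which rests on 1 read in all, and at 49.0 and 49.9 TPM in WT EpiLC. Its log2 fold change was 5.30 ± 0.24 (SE, n = 2 and 2 libraries, limma adjusted p = 6.51e-20). The ratio of the pooled TPM was 226, with a 95% exact interval from 40.4 to 8950 that covers counting error only. Over all lines, Myl9 was between 0 and 1.79 TPM in the 18 ESC libraries and between 39.1 and 94.0 TPM in the 18 EpiLC libraries, so the stages did not overlap in any line. For the 3 ESC libraries at 0, 3 reads would have been worth 1.0 to 2.3 TPM.

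Tpm2 went from 1.96 and 1.88 TPM in WT ESC to 23.1 and 24.1 TPM in WT EpiLC, a log2 fold change of 3.08 ± 0.16 (limma adjusted p = 1.55e-18). Tpm1 went from 27.8 and 31.4 to 142 and 134 TPM, a log2 fold change of 2.19 ± 0.13 (limma adjusted p = 1.56e-16). Both tropomyosin genes therefore rose at this step, Tpm1 from the higher start. Cnn1 was at 0.182 and 0.350 TPM in WT ESC, on 2 reads in all, and at 8.51 and 11.4 TPM in WT EpiLC (ratio of pooled TPM 45.6, 95% exact interval from 12.5 to 379). Tagln was at 2.51 and 0.876 TPM, on 11 and 2 reads, and then at 18.01 and 17.35 TPM. Its log2 fold change was 2.86 ± 0.22 (limma adjusted p = 1.37e-13). Cnn2, the calponin found in many non-muscle cells, rose from its ESC level to 94.2 and 95.4 TPM, by 1.68 ± 0.11. Acta2 was the one member that was not called, at 7.61 and 4.86 TPM in ESC and 10.4 and 8.60 TPM in EpiLC (log2 fold change 0.56 ± 0.21, limma adjusted p = 0.0246, under the fold limit).

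Between WT EpiLC and WT PGCLC 21.1% of all genes were called, and the median log2 fold change was 1.12 over the members and 0.148 over all genes. Because these are bulk libraries, more cells that express a gene and more RNA per cell cannot be told apart. Tagln stood at 18.01 and 17.35 TPM in EpiLC and at 384 and 339 TPM in PGCLC. Its log2 fold change was 4.27 ± 0.22 (limma adjusted p = 3.2e-18), and it became 40.6% of the 7-gene total in WT PGCLC. Cnn1 rose to 38.0 and 34.0 TPM (1.76 ± 0.23, limma adjusted p = 4.61e-08) and Cnn2 to 218 and 197 TPM (1.12 ± 0.11, limma adjusted p = 6.56e-11). Acta2 rose to 24.7 and 21.3 TPM (1.19 ± 0.21, limma adjusted p = 1.13e-05), a call that fell under the fold limit with a pseudocount of 5 (0.95) and with quantile normalization (0.93).

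The other 3 members did not pass both limits at that second step. Tpm1 was at 230 and 200 TPM in WT PGCLC (log2 fold change 0.63 ± 0.13, limma adjusted p = 7.38e-05). Myl9 was at 31.9 and 24.4 TPM, below each EpiLC library (-0.80 ± 0.24, limma adjusted p = 0.00429). Tpm2 was at 21.7 and 17.4 TPM (-0.27 ± 0.16, limma adjusted p = 0.137). Both Tpm1 libraries were nevertheless above both EpiLC libraries in WT, whereas those of Myl9 and Tpm2 were below theirs.

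In the other 8 lines, 29 of 56 tests from EpiLC to PGCLC were calls upwards and 5 were calls downwards, where 21.2% of all tests were called in either direction. The median log2 fold change was 1.06 over the members and 0.109 over all genes. Tagln rose in 8 of 8 lines, from 2.18 ± 0.22 in Ovol3KO to 4.01 ± 0.22 in Cdh1-Tg. Acta2 rose in 7 lines, and in Ovol3KO it had a log2 fold change of 0.36. Tpm1 rose in 6, namely Cdh1-Tg (2.76), TKO (2.68), Ovol2KO (2.17), Ovol2b-Tg (1.81), Ovol2a/2b-Tg (1.66) and Ovol2a-Tg (1.40), each with an SE of 0.13. It was not called in Ovol1KO (0.36) or in Ovol3KO (-0.39).

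Cnn1 rose in 5 lines: Ovol2a-Tg (2.41), Ovol2a/2b-Tg (2.25), Ovol1KO (1.49), Cdh1-Tg (1.31) and TKO (1.08). The calls of Ovol1KO, TKO and Cdh1-Tg were lost with a pseudocount of 0.1 (limma adjusted p = 0.0804, 0.191 and 0.121). Their log2 fold changes were then 1.56, 1.14 and 1.36, so the adjusted p alone was missed. The call of TKO was also lost with a pseudocount of 5 (0.89) and with quantile normalization (0.82). Cnn2 rose in 3 Tg lines, by 1.49 in Ovol2a/2b-Tg, 1.41 in Cdh1-Tg and 1.03 in Ovol2a-Tg on the log2 scale. The Ovol2a-Tg value was under the fold limit with quantile normalization (0.99) and limma-voom (0.98), and also without EpiLC replicate 1 (0.90) or PGCLC replicate 2 (0.89) of that line. Myl9 fell in 4 lines, Ovol1KO (-1.57 ± 0.24), Ovol2KO (-1.09), Ovol3KO (-1.26) and Ovol2b-Tg (-1.23). With a pseudocount of 0.1 none of those 4 was called (limma adjusted p from 0.0613 to 0.183). The log2 fold changes of Myl9 were then -1.60, -1.11, -1.29 and -1.25 in that order of lines, so the adjusted p was missed and not the fold limit. Tpm2 fell in Ovol3KO by 1.14 on the log2 scale, or by 0.94 with a pseudocount of 5.

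**Figure D2:**
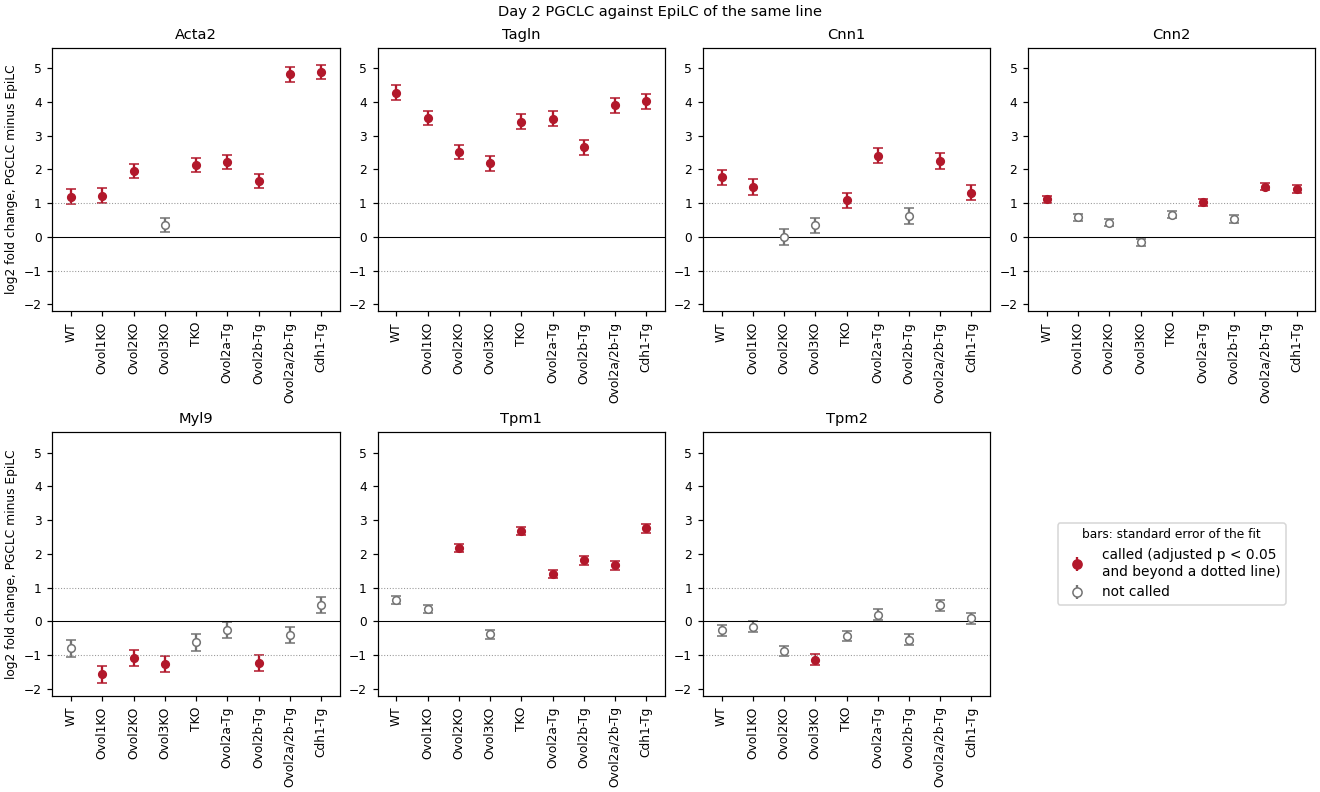
Log2 fold change of log2(TPM + 1) from EpiLC to PGCLC for the 7 genes in each of 9 lines, with bars of 1 SE from the limma model of 54 libraries. Filled points passed both the adjusted p and the fold limit. Tagln lies above the limit in 9 of 9 lines, Myl9 lies at or below 0 except in Cdh1-Tg, and the Acta2 values of Ovol2a/2b-Tg (4.81) and Cdh1-Tg (4.88) stand above those of the other 7 lines.

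In PGCLC the lines differed from WT mainly in Tpm1 and Acta2. Tpm1 rose in 6 of 8 lines and fell in 1. Acta2 rose in 5 and fell in 1. Tagln and Cnn1 fell in Ovol3KO, and Cnn2, Myl9 and Tpm2 were called in none of the 8 by limma or limma-voom, with 3, 5 and 5 lines at an unadjusted p under 0.05. These 8 comparisons share the WT PGCLC pair (5.22 and 6.94 M reads), so they are not independent of each other.

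Tpm1 levels in PGCLC were 230 and 200 TPM in WT and 192 and 211 TPM in Ovol1KO. They were 824 and 846 TPM in Ovol2KO, 1043 and 1030.0 TPM in TKO and 109 and 103 TPM in Ovol3KO. In the Tg lines they were 349 and 577 TPM in Ovol2a-Tg, 712 and 648 TPM in Ovol2b-Tg, 663 and 607 TPM in Ovol2a/2b-Tg and 1148 and 1176 TPM in Cdh1-Tg. The 9 lines thus ranged over more than a factor of 10 in this tropomyosin, and the Ovol2KO, TKO and Tg libraries all lay above every WT and Ovol1KO library. In order of the mean, the neighbours Ovol2b-Tg and Ovol2a/2b-Tg overlapped, as did WT and Ovol1KO, and all other neighbours were apart. Tpm1 made up 24.2% of the 7-gene total in WT PGCLC, 59.1% in Ovol2KO and 60.7% in TKO.

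The limma log2 fold change of Tpm1 against WT PGCLC was 1.96 ± 0.16 in Ovol2KO (adjusted p = 1.06e-06), in a comparison that called 8.18% of all genes. It was 2.27 ± 0.16 in TKO (adjusted p = 1.66e-07), where 10.5% of all genes were called. In Cdh1-Tg it was 2.43 ± 0.16 (adjusted p = 8.73e-08), with 9.86% of all genes called. In Ovol2b-Tg it was 1.66 ± 0.16 (adjusted p = 4.17e-06) against 8.3% of all genes, and in Ovol2a/2b-Tg 1.56 ± 0.16 (adjusted p = 6.18e-06) against 7.62%. In Ovol2a-Tg it was 1.06 ± 0.16 (adjusted p = 0.000429) against 3.43%. The 2 libraries of Ovol2a-Tg were the farthest apart of the 9 pairs for this gene, and without the second of them (0.70), or without the second WT library (0.96), the Ovol2a-Tg value was under the fold limit. These comparisons are of gene totals, and Tpm1 makes several splice forms that gene-level TPM does not separate.

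Acta2 levels in PGCLC were 24.7 and 21.3 TPM in WT, 33.9 and 27.5 TPM in Ovol1KO, 27.5 and 39.1 TPM in Ovol2KO, 12.8 and 9.17 TPM in Ovol3KO and 55.1 and 60.3 TPM in TKO. In the Tg lines they were 52.8 and 71.6 TPM in Ovol2a-Tg, 51.5 and 48.1 TPM in Ovol2b-Tg, 128 and 105 TPM in Ovol2a/2b-Tg and 83.2 and 82.9 TPM in Cdh1-Tg. The TKO and Tg libraries lay above every WT, Ovol1KO, Ovol2KO and Ovol3KO library. The order of the means differs from that of Tpm1: Ovol2a/2b-Tg was the highest line for Acta2 but had 4 lines above it for Tpm1, and Ovol2KO had 5 lines above it for Acta2 but 2 for Tpm1. Neighbours that overlapped were Ovol2a-Tg with TKO and Ovol2KO with Ovol1KO.

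Against WT, Acta2 had a log2 fold change of 2.28 ± 0.18 in Ovol2a/2b-Tg (limma adjusted p = 4.2e-07), 1.81 ± 0.18 in Cdh1-Tg (2.18e-06) and 1.38 ± 0.18 in Ovol2a-Tg (0.000111). It was 1.29 ± 0.18 in TKO (limma adjusted p = 5.91e-05) and 1.08 ± 0.18 in Ovol2b-Tg (0.000357). The Ovol2b-Tg value was under the fold limit with a pseudocount of 5 (0.97) and without the second WT library (0.98). TKO and Ovol2KO were also compared directly: none of the 7 genes was called (0.985% of all genes were), with log2 differences of 0.79 for Acta2 (limma adjusted p = 0.0193) and 0.31 for Tpm1 (limma adjusted p = 0.288). At an unadjusted p under 0.05 the count was 2 of 7, limma-voom called 0, and without the second Ovol2KO library 1 member was called.

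**Figure D3:**
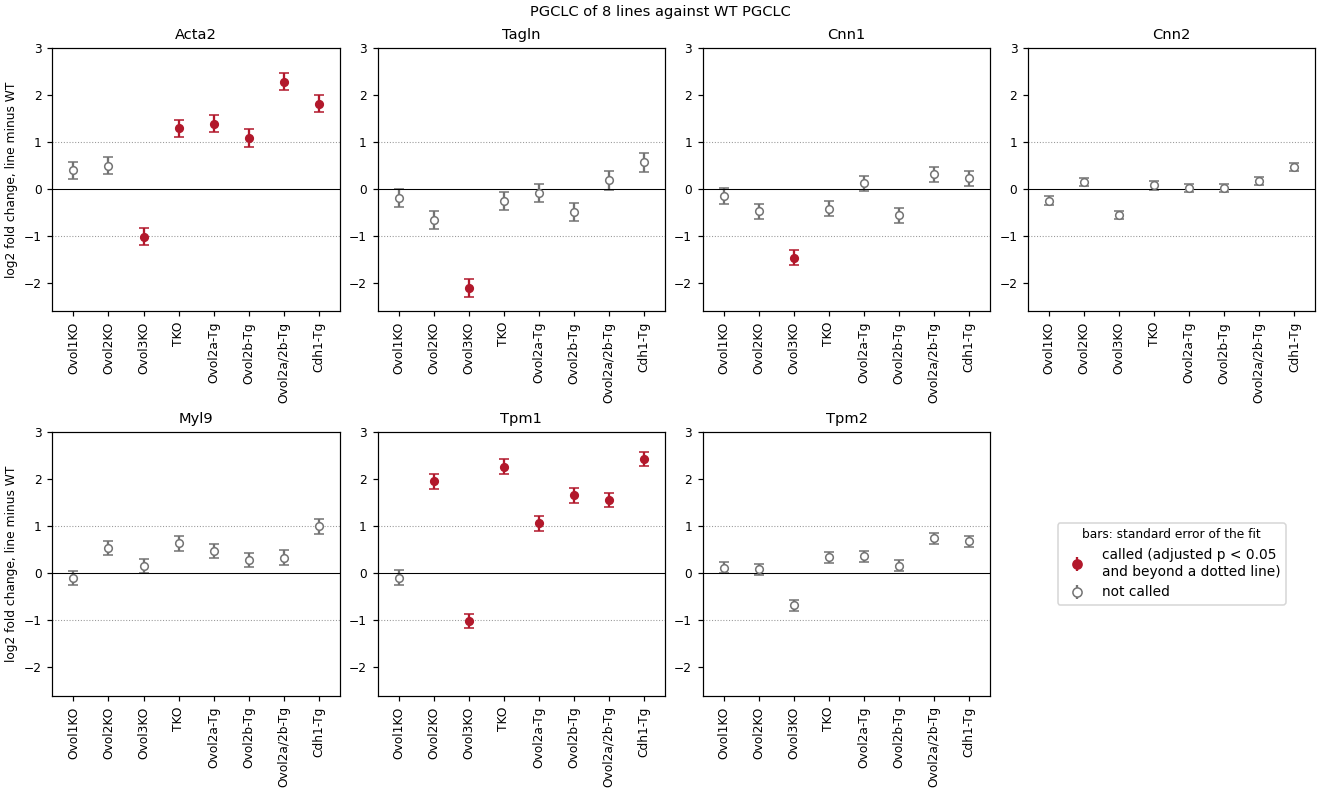
Log2 fold change of log2(TPM + 1) against WT in PGCLC for the 7 genes in each of 8 lines, with bars of 1 SE from the limma model of the 18 PGCLC libraries. Filled red points passed the adjusted p and the fold limit. Tpm1 and Acta2 are called above 0 in most lines, and Ovol3KO has 4 called genes below 0.

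Ovol3KO was the one line in which members fell in PGCLC, 4 of 7, in a comparison that called 12.8% of all genes. The median log2 fold change was -1.01 over the members and -0.115 over all genes. Tagln was 384 and 339 TPM in WT and 111 and 62.5 TPM in Ovol3KO, a log2 fold change of -2.10 ± 0.19 (limma adjusted p = 1.88e-06). Cnn1 was 38.0 and 34.0 TPM in WT and 15.0 and 10.2 TPM in Ovol3KO, a log2 fold change of -1.46 ± 0.16 (limma adjusted p = 3.41e-06). Ovol3KO had the lowest library of all 9 lines for both genes, and its range did not overlap that of any other line.

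Acta2 (-1.02 ± 0.18, limma adjusted p = 0.000337) and Tpm1 (-1.01 ± 0.16, limma adjusted p = 0.000138) lay at the fold limit in Ovol3KO. Both missed it with a pseudocount of 5 (-0.82 and -0.99), with quantile normalization (-0.79 and -0.93) and without WT replicate 1 (-0.91 and -0.91) or Ovol3KO replicate 2 (-0.80 and -0.97). By limma-voom on the recovered reads both missed the adjusted p as well (0.0682 and 0.0603). The second Ovol3KO library held 2.58 M reads and the first 17.25 M. Tpm2 (-0.67) and Cnn2 (-0.56) were lower but not called, and Myl9 had a log2 fold change of 0.16. Myl9 was 29.5 and 33.0 TPM in Ovol3KO and 31.9 and 24.4 TPM in WT, so its ranges overlapped.

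Ovol1KO had no called member in PGCLC, with log2 fold changes from -0.25 to 0.40, against 0.666% of all genes. By limma at an unadjusted p under 0.05 the count was 2 of 7, and limma-voom called 0. For Tagln the order in PGCLC ran from 498 and 571 TPM in Cdh1-Tg through 452 and 369 TPM in Ovol2a/2b-Tg, 320 and 360 TPM in Ovol2a-Tg, 311 and 316 TPM in Ovol1KO, 309 and 291 TPM in TKO and 252 and 262 TPM in Ovol2b-Tg to 210 and 247 TPM in Ovol2KO, with Ovol3KO last. Its WT pair overlapped Ovol2a/2b-Tg and Ovol2a-Tg. In Ovol2KO, where Tpm1 rose, Tagln had a log2 fold change of -0.66 (limma adjusted p = 0.0219) and Cnn1 of -0.48, neither called. Cnn1 ran from 49.6 and 40.7 TPM in Ovol2a/2b-Tg to Ovol3KO, with Ovol2KO (23.4 and 27.9 TPM), TKO (26.1 and 26.97 TPM) and Ovol2b-Tg (28.0 and 20.8 TPM) in mutual overlap below the 34.0 and 38.0 TPM of WT.

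The remaining members moved less. Myl9 was highest in Cdh1-Tg at 57.1 and 56.4 TPM, with a log2 fold change of 0.999 ± 0.15 that lay just under the fold limit (limma adjusted p = 0.000103). All other neighbours in the order of Myl9 overlapped, down to 23.8 and 28.3 TPM in Ovol1KO. Cnn2 lay between 138 and 289 TPM in the 18 libraries, with Cdh1-Tg (285 and 289 TPM) above and Ovol3KO (143 and 138 TPM) below every other library. Tpm2 was 34.8 and 31.6 TPM in Ovol2a/2b-Tg, 30.3 and 33.1 TPM in Cdh1-Tg and 12.1 and 11.5 TPM in Ovol3KO, with the other 6 lines between 17.4 and 27.2 TPM. The 2 tropomyosin genes thus spread differently: over the lines the log2 fold changes ran from -1.01 to 2.43 for Tpm1 and from -0.67 to 0.74 for Tpm2.

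**Figure D4:**
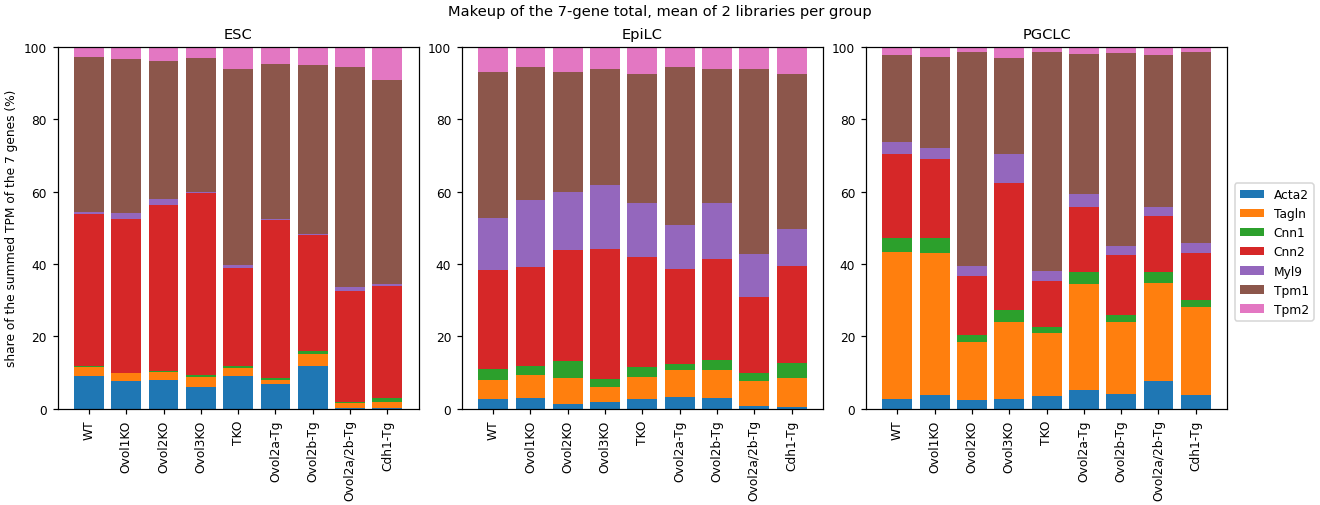
Share of each of the 7 genes in their summed TPM (vertical axis, percent, mean of 2 libraries) for 9 lines at each of 3 stages. Cnn2 and Tpm1 make up most of the sum in ESC, Tagln is 40.6% in WT PGCLC, and Tpm1 is 59.1% in Ovol2KO and 60.7% in TKO PGCLC.

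The summed TPM of the 7 genes in PGCLC was 1376 and 1450 in Ovol2KO, 1732 and 1684 in TKO and 2142 and 2251 in Cdh1-Tg, and 432 and 367 in Ovol3KO, against 948 and 832 in WT. Tg lines were also set against TKO in PGCLC, although no label says that they were made from it. In those 4 comparisons 1 of 28 tests was called, against 3.58% of all tests: Tpm1 was lower in Ovol2a-Tg by a log2 fold change of -1.21 ± 0.16 (limma adjusted p = 0.000283). Without the first Ovol2a-Tg library that value was -0.84. In Cdh1-Tg Tpm1 differed from TKO by 0.17 on the log2 scale. Acta2 in Ovol2a/2b-Tg was 0.99 above TKO (limma adjusted p = 0.000631), just under the fold limit.

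At the earlier stages fewer tests against WT passed both limits than in PGCLC. For EpiLC, but not for ESC, this holds with the fold limit only. By adjusted p alone 34 of 56 EpiLC tests and 9 of 56 ESC tests were called, and the share of all tests under that rule is not given here. In EpiLC 5 of 56 tests were called, 3 upwards and 2 downwards, against 2.71% of all tests, and the median log2 fold change was 0.352 over the members and 0.0498 over all genes. Ovol2KO EpiLC had Cnn1 at 26.9 and 24.4 TPM against 8.51 and 11.4 TPM in WT (log2 fold change 1.29 ± 0.14, limma adjusted p = 3.3e-05). Tagln there was 41.6 and 36.5 TPM against 18.01 and 17.35 TPM (1.10 ± 0.12, limma adjusted p = 1.91e-05). In Ovol2b-Tg EpiLC Tagln was 39.6 and 40.6 TPM (1.14 ± 0.12, limma adjusted p = 9.96e-06). The 2 libraries of that group differed by little beyond read sampling and may come from a single sample. With the pair averaged as 1 sample the limma adjusted p was 0.000363, where the lone sample is assumed to vary like the other groups. With a pseudocount of 5 both Tagln values were just under the fold limit (0.96 and 0.99). In ESC 3 of 56 tests were called, 1 upwards and 2 downwards, against 3.88% of all tests. The rise was Tpm2 in Cdh1-Tg, at 5.28 and 6.26 TPM against 1.96 and 1.88 TPM (1.21 ± 0.24, limma adjusted p = 0.00186), and 0.64 with a pseudocount of 5.

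Differences that missed the fold limit were common in EpiLC. Myl9 was 49.0 and 49.9 TPM in WT EpiLC, and both libraries were higher in Ovol1KO (91.0 and 68.5 TPM), Ovol2KO (94.0 and 83.6 TPM), Ovol3KO (71.3 and 81.7 TPM), TKO (66.3 and 70.5 TPM) and Ovol2b-Tg (85.2 and 76.8 TPM). In Cdh1-Tg both Myl9 libraries were lower than in WT, at 41.0 and 39.1 TPM (log2 fold change -0.30, limma adjusted p = 0.0372). Those of Ovol2a-Tg (46.5 and 48.2 TPM) and Ovol2a/2b-Tg (47.2 and 47.2 TPM) lay close to WT. These 2 lines missed the adjusted p as well (limma adjusted p = 0.748 and 0.671). Cnn2 in EpiLC was 94.2 and 95.4 TPM in WT, 184 and 159 TPM in Ovol2KO and 150 and 163 TPM in Ovol3KO, and Tpm2 was 23.1 and 24.1 TPM in WT and 41.4 and 36.5 TPM in Ovol2KO. Tpm1, which spread so widely in PGCLC, lay between 134 and 204 TPM in all 18 EpiLC libraries and between 22.8 and 36.4 TPM in all 18 ESC libraries. Cnn2 in ESC was 30.3 and 27.7 TPM in WT, 40.6 and 46.6 TPM in Ovol3KO, 14.5 and 17.5 TPM in TKO and 15.4 and 14.8 TPM in Ovol2a/2b-Tg, with none of these called.

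The falls at the earlier stages were all in Acta2, in Ovol2a/2b-Tg and Cdh1-Tg. In ESC, Acta2 was 0 and 0.0992 TPM in Ovol2a/2b-Tg, on 1 read in all, and 0 and 0.158 TPM in Cdh1-Tg, on 3 reads, against 3.93 to 7.61 TPM in the 14 libraries of the other 7 lines. The ratio of pooled TPM, WT over the line, was 140 for Ovol2a/2b-Tg (95% exact interval from 24.3 to 5600) and 81.7 for Cdh1-Tg (26.9 to 405). In the 2 libraries at 0, 3 reads would have been worth 0.275 and 0.169 TPM. In EpiLC, Acta2 was 2.996 and 3.299 TPM in Ovol2a/2b-Tg and 2.05 and 1.67 TPM in Cdh1-Tg, against 6.65 to 16.5 TPM in the other 7 lines. The log2 fold changes against WT were -1.34 ± 0.17 (limma adjusted p = 1.88e-05) and -1.88 ± 0.17 (5.83e-07), the first of which was -0.83 with a pseudocount of 5. The same 2 lines had the highest Acta2 of all lines in PGCLC, so both groups passed from the lowest to the highest level over the culture.

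Acta1, the skeletal muscle alpha-actin gene and a close paralog, was low in the same 2 lines at the same 2 stages. In ESC it was 3.46 and 2.44 TPM in Ovol2a/2b-Tg and 7.11 and 5.596 TPM in Cdh1-Tg, against 36.2 to 73.6 TPM in the other 7 lines. In EpiLC it was 5.56 and 7.82 TPM and 6.35 and 5.35 TPM, against 58.4 to 71.0 TPM. In PGCLC it was between 57.3 and 144 TPM in all 18 libraries, and it was not higher in those 2 lines. Actb, the cytoplasmic actin, was 1953 to 4341 TPM over all 54 libraries. The part of reads shared between actin genes in these values was not tested. The sample descriptions of these 2 lines, and of Ovol2a-Tg, carry suffixes that the others mostly lack. The column headers of Ovol2a/2b-Tg carry the tag res, as do those of the other Ovol2 Tg lines, but with an added digit before it. Those of Cdh1-Tg carry OE. Whether the libraries were handled apart is not stated, and any such handling cannot be told apart from the line.

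**Figure D5:**
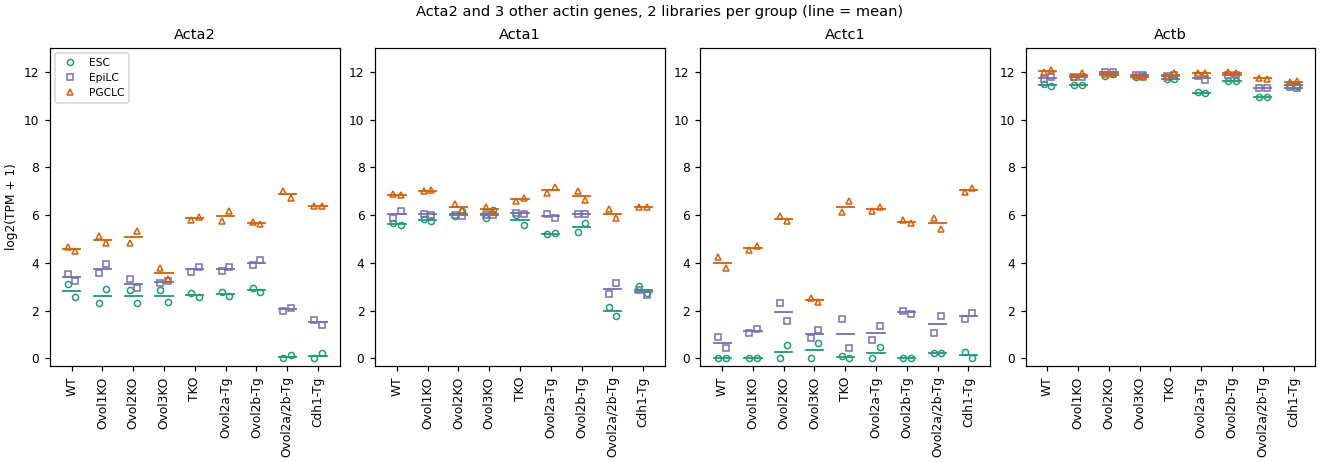
Level of 4 actin genes (Acta2, Acta1, Actc1, Actb) as log2(TPM + 1) on the vertical axes at 3 stages for 9 lines, with 1 point per library. In ESC and EpiLC the points of Ovol2a/2b-Tg and Cdh1-Tg lie below all others for Acta2 and Acta1, and Actb stays between 1953 and 4341 TPM.

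Whether a line's difference from WT changed between EpiLC and PGCLC was tested as an interaction in the model of 54 libraries. It was called in 17 of 56 tests, 9 upwards and 8 downwards, against 7.63% of all tests. Tpm1 was called in 6 lines with a larger difference from WT in PGCLC in 5 of them, from 1.02 in Ovol2a/2b-Tg to 2.12 in Cdh1-Tg, and in Ovol3KO in the other direction (-1.02). Tagln was called in Ovol2KO (-1.76), Ovol3KO (-2.09) and Ovol2b-Tg (-1.62). In Ovol2KO the actin-binding genes Tagln and Cnn1 lay above both WT libraries in EpiLC and below both in PGCLC, while Tpm1 had its larger excess in PGCLC. Acta2 was called in Ovol2a/2b-Tg (3.62) and Cdh1-Tg (3.69), the 2 lines with the low early levels, and in Ovol2a-Tg (1.03, limma adjusted p = 0.0327), where the call was lost without any of 5 single libraries. Of the Ovol2b-Tg values, Tagln had a limma adjusted p of 0.000213, and of 0.00148 with the 2 EpiLC libraries of that line averaged as 1 sample.

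Further genes of the contractile apparatus were taken from a fixed list of 18, whose summed TPM was 519.7 to 982.2 in the 18 PGCLC libraries. Cald1 (16.7 to 224 TPM), Csrp1 (78.1 to 260 TPM) and Hspb1 (108 to 414 TPM) made up much of that sum. Other genes of the list were scarce. Myh11, the smooth muscle myosin heavy chain, was 0.0908 to 1.98 TPM in the 18 PGCLC libraries, Lmod1 0 to 1.78, Mylk (myosin light chain kinase) 0 to 3.75 and Actg2 (enteric smooth muscle actin) 0 to 3.03. Myocd, the cofactor of SRF that marks smooth and cardiac muscle, was 0 to 0.875 TPM and did not enter the test. These 5 genes were named after their values were seen, so their low levels do not describe the whole list.

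In WT, 7 of those 18 rose and 2 fell from ESC to EpiLC, with Pdlim3 (3.90), Pdlim7 (3.23) and the intermediate filament gene Des (2.18) upwards and the small heat shock gene Hspb1 (-2.85) downwards. From EpiLC to PGCLC 4 rose and 2 fell, among them Cald1 (1.79), Itga8 (1.25) and Csrp1 (1.18) upwards and Ppp1r14a (-1.63) downwards. Against WT in PGCLC, 5 of 18 rose in TKO (Ppp1r14a 2.01, Mylk 1.71, Des 1.66 and Cald1 1.12 among them), 6 in Ovol2a/2b-Tg (Nexn 2.41 and Ppp1r14a 2.00) and 5 in Cdh1-Tg (Cald1 1.81). In Ovol2KO 1 rose (Mylk 1.2), in Ovol2a-Tg and Ovol2b-Tg 2 each, and in Ovol1KO 0. In Ovol3KO 2 fell, Pdlim3 (-1.90) and Cald1 (-1.74), and none rose, near the background of 12.8% of all genes called. For the WT steps that share, in either direction, was 20.6% (ESC to EpiLC) and 21.1% (EpiLC to PGCLC). Against WT in PGCLC it was 10.5% in TKO, 7.62% in Ovol2a/2b-Tg, 9.86% in Cdh1-Tg and 8.18% in Ovol2KO. In Ovol2a-Tg it was 3.43%, in Ovol2b-Tg 8.3% and in Ovol1KO 0.666%. Cald1 encodes caldesmon, which binds actin and tropomyosin, and it stood at 66.5 and 57.8 TPM in WT PGCLC, 19.0 and 16.7 TPM in Ovol3KO, 132 and 139 TPM in TKO and 216 and 224 TPM in Cdh1-Tg.

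Of 13 paralogs of the members, 3 rose from EpiLC to PGCLC in WT, where 21.1% of all genes were called in either direction. They were the cardiac actin gene Actc1 (3.35), the tropomyosin gene Tpm4 (1.61) and the transgelin gene Tagln2 (1.36). Against WT in PGCLC, Actc1 rose in Ovol2KO (1.84), TKO (2.34) and Cdh1-Tg (3.05) and fell in Ovol3KO (-1.56). Its levels were 17.9 and 12.7 TPM in WT, 68.5 and 94.7 TPM in TKO, 123 and 141 TPM in Cdh1-Tg and 4.85 and 4.10 TPM in Ovol3KO. The broadly expressed tropomyosins spread less than Tpm1 did: Tpm3 was 314.3 to 474.4 TPM and Tpm4 202.3 to 612.3 TPM over the 18 PGCLC libraries, and Tpm4 fell in Ovol3KO (-1.2).

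Of 6 tested genes of SRF and its cofactors, Srf rose from ESC to EpiLC in WT (1.41) and was 51.1 to 94.6 TPM in PGCLC. Elk3, a partner of SRF of the ETS family, fell at that step (-2.06) and rose from EpiLC to PGCLC (1.52). Against WT PGCLC, Elk3 rose in Ovol2KO (1.2), TKO (1.94), Ovol2b-Tg (1.24) and Cdh1-Tg (1.46) and fell in Ovol3KO (-1.08). Of 18 known targets of SRF-MRTF and of YAP, 5 rose and 2 fell from ESC to EpiLC in WT (Flnc 4.65, Zyx 3.40, Fhl1 -2.78, Thbs1 2.13), and 9 rose from EpiLC to PGCLC (Tgfb1i1 3.54, Fhl1 2.64, Fhl2 2.01, Ankrd1 1.79). In Ovol3KO PGCLC 9 of the 18 fell and none rose (Tgfb1i1 -2.41, Flnc -2.14, Fhl2 -2.10, Cyr61 -1.96). In Ovol2KO 2 fell and none rose (Thbs1 -2.36, Ctgf -1.48), and TKO had 1 rise (Tgfb1i1 1.33) and 2 falls (Ctgf -1.70, Thbs1 -1.73). The 9 of 18 in Ovol3KO stand beside 12.8% of all genes called, and the 2 of 18 in Ovol2KO beside 8.18%, near the background. The TKO calls stand beside 10.5%, and the calls at the WT steps beside 20.6% (ESC to EpiLC) and 21.1% (EpiLC to PGCLC).

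Markers of other cell types moved with the line in PGCLC, and their part in the results above was not tested. The summed TPM of 9 mesenchymal genes was 697.3 to 1174 in WT and Ovol1KO, 237.5 to 267.0 in Ovol3KO and 1902 to 3410 in Ovol2KO, TKO and the 4 Tg lines. The same sum for 10 fibroblast genes was 74.4 to 90.3, 37.7 to 40.2 and 164.6 to 399.4 in that order of lines, and for 6 pericyte and mural genes 81.5 to 93.9, 42.9 to 43.2 and 114.7 to 172.2. Those 3 sums had the order of Tpm1 between these groups of lines. For 7 primitive streak and mesoderm genes the sum was 1158 to 1919, 113.5 to 228.2 and 1281 to 2897.

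Of the mesenchymal genes, 9 of 9 rose in Ovol2KO and in TKO, 8 in Ovol2b-Tg and Cdh1-Tg, 7 in Ovol2a-Tg and 6 in Ovol2a/2b-Tg, and 7 fell in Ovol3KO. Of the 10 fibroblast genes, 5 rose in TKO, Ovol2b-Tg and Ovol2a/2b-Tg, 3 in Ovol2a-Tg and 2 in Ovol2KO and Cdh1-Tg, and 4 fell in Ovol3KO. Over all genes, calls in either direction were 8.18% in Ovol2KO, 10.5% in TKO, 3.43% in Ovol2a-Tg and 8.3% in Ovol2b-Tg. They were 7.62% in Ovol2a/2b-Tg, 9.86% in Cdh1-Tg and 12.8% in Ovol3KO. The collagen gene Col1a1 was 12.0 and 8.30 TPM in WT, 236 and 254 TPM in TKO and 1.31 and 0.692 TPM in Ovol3KO. The pericyte gene Rgs5 was 0.233 and 0 TPM in WT, 16.3 and 17.2 TPM in TKO, 23.9 and 22.4 TPM in Cdh1-Tg and 0 in both Ovol3KO libraries. The receptor gene Pdgfrb was 13.7 and 12.9 TPM in WT, 57.8 and 52.3 TPM in TKO and 2.25 and 1.95 TPM in Ovol3KO. Myh11 and Myocd, of the same pericyte and mural list, were scarce in every line, as given above.

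Skeletal muscle markers summed to at most 1.79 TPM in PGCLC, and 11 cardiac markers to 9.30 to 32.4 TPM. Summed TPM of 8 epithelial genes was 1676 to 1888 in WT and Ovol1KO, 1003 to 1026 in Ovol3KO and 778.1 to 1945 in the other 6 lines. Summed TPM of 7 naive genes was 830.5 to 927.7 in Ovol3KO, 393.4 to 637.3 in WT and Ovol1KO and 174.6 to 326.7 in the other 6, the reverse of the order of Tpm1. For 4 formative genes the sums were 300.7 to 386.0, 150.1 to 248.3 and 75.7 to 164.0 TPM in that order, and the last 2 ranges overlapped, since Ovol2a/2b-Tg (163.8 and 164.0 TPM) lay above the first WT library (150.1 TPM).

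Over the 27 group means of log2(TPM + 1), which share the stage differences, members were alike to differing degrees. Pearson's r between pairs ran from 0.564 (Acta2 with Myl9) to 0.969 (Myl9 with Tpm2). After the mean of the 9 lines at each stage was subtracted, r ran from 0.178 (Acta2 with Tpm2) to 0.786 (Cnn1 with Tpm2), and it was 0.732 for Cnn1 with Tagln. Among all tested genes that are no members, those most like Tpm1 over the group means were Tspan2 (0.980), Cald1 (0.977) and Mmp2 (0.976). With the stage mean subtracted they were Unc5c (0.962), Kif26b (0.955) and Hoxd4 (0.954). Acta2 was then most like Sparc (0.832), Csrp1 (0.752) and Acta1 (0.750), with no shared gene among the 3 named for Tpm1. Tagln over the group means was most like Has2 (0.985), Cnn1 most like Stbd1 (0.983), Cnn2 most like Fkbp10 (0.974), Myl9 most like Car4 (0.985) and Tpm2 most like Pdlim7 (0.984). These likenesses describe the 27 means and carry no test.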

How the data were processed

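The authors deposited 1 gene table of TPM values for the 54 libraries. Per the labels' protocols, total RNA (RNeasy Micro) was enriched by poly(A) and libraries were directional (NEBNext Ultra), with 12 PCR cycles. HISAT2, featureCounts, edgeR and the mm10 build are named in the submitters' processing notes. Tool versions, gene models and the strandedness of the counting were not given in the sources used here. TPM gives shares of the mRNA and says nothing of RNA per cell.

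Titles gave the groups. For the 2 libraries of Ovol2b-Tg in EpiLC, the numbers in the column headers match neither title. Their headers gave stage and line only, so these columns could not be tied to single samples. Dividing out the TPM steps gave whole reads for 17973 genes, all of those above 0 (100.0%, tolerance 0.01 reads). Genes that reached 1 TPM in 2 or more libraries were tested with limma 3.58.1 (R 4.3.3) on log2(TPM + 1), with trend and robust shrinkage; lines were compared within the 18 libraries of a stage (9 residual degrees of freedom), and stages and interactions over all 54 (27). The fit was tested on simulated data. With 2 libraries against 2, no permutation test can reach 0.05, so none was run. Alternatives were other pseudocounts, filters, quantile normalization, limma-voom, a replicate block, other sets of libraries and leaving out each library.

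The members and lists were chosen with earlier results of these data known. The rule for named genes took the 7 members, Ovol1, Ovol2, Ovol3 and Cdh1, up to 4 called genes with the largest change per list and comparison, the most abundant gene of each list and the 3 genes most like each member. Acta1, Tpm3, Myh11, Lmod1, Mylk, Actg2, Myocd, Col1a1, Rgs5 and Pdgfrb, where that rule does not give them, were named after their values were seen.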

Additional observations from a re-analysis of the deposited data

Results flagged for a closer look

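For 17 pairs of gene and line the difference from WT itself differed between PGCLC and EpiLC, by the limma interaction test. Each value below is the log2 difference in PGCLC minus that in EpiLC. In Ovol2KO it was -1.77 for Cnn1 (adjusted p = 0.000149), -1.76 for Tagln (6.99e-05) and 1.54 for Tpm1 (9.15e-08). In Ovol3KO it was -1.28 for Cnn2 (adjusted p = 3.99e-08), -1.42 for Cnn1 (0.000697), -2.09 for Tagln (1.46e-06) and -1.02 for Tpm1 (2.96e-05). In TKO it was 2.04 for Tpm1 (adjusted p = 1.51e-10).

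Ovol2a-Tg had 1.03 for Acta2 (adjusted p = 0.0327), and Ovol2b-Tg had -1.14 for Cnn1 (0.0133), -1.62 for Tagln (0.000213) and 1.17 for Tpm1 (1.27e-05). The 2 EpiLC libraries of Ovol2b-Tg may come from a single sample. With them averaged as 1 sample these adjusted p-values were 0.0399, 0.00148 and 0.000138. Ovol2a/2b-Tg had 3.62 for Acta2 (adjusted p = 9.18e-11) and 1.02 for Tpm1 (9.46e-05). Cdh1-Tg had 3.69 for Acta2 (adjusted p = 1.58e-11), 1.29 for Myl9 (0.00471) and 2.12 for Tpm1 (5.68e-11). Cnn2 in Ovol3KO was above WT in EpiLC (150 and 163 TPM against 94.2 and 95.4) and below it in PGCLC (143 and 138 TPM against 218 and 197), so its difference from WT changed sign.

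Of the 17, 10 kept their call under every alternative run. The others were Acta2 in Ovol2a-Tg, Cnn1 in Ovol2KO, Ovol3KO and Ovol2b-Tg, Myl9 in Cdh1-Tg, and Tpm1 in Ovol3KO and Ovol2a/2b-Tg. Acta2 in Ovol2a-Tg lost its call under 8 alternatives, 5 of them the loss of a single library, with values down to 0.81. Cnn1 in Ovol2KO (adjusted p = 0.277), Cnn1 in Ovol3KO (0.290) and Myl9 in Cdh1-Tg (0.414) lost it with a pseudocount of 0.1 alone. The values with that pseudocount were -1.86, -1.49 and 1.32.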

How the results depend on the processing

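No gene fold change changed direction under any alternative. Of 1239 recomputed fold changes of genes called in the main fit, 63 were no longer called. With counts of calls and the levels included, 1459 of 1547 values were classed as the same, where small shifts of a count were allowed. Without a fold limit the calls among the 7 genes in PGCLC against WT were 4 for Ovol2KO, TKO and Ovol2a-Tg and 6 for Cdh1-Tg. In Ovol3KO, Cnn2 (limma adjusted p = 0.000116) and Tpm2 (limma adjusted p = 0.000263) then joined the 4 of the main fit. Cnn1 in Ovol2b-Tg (limma adjusted p = 0.0163) and Tpm2 in Ovol2a/2b-Tg (limma adjusted p = 0.000196) were also called. In EpiLC the calls without a fold limit were 34, in ESC 9, for TKO against Ovol2KO 1, for the Tg lines against TKO 9 and for the interactions 26. The share of all genes called without a fold limit is not given here. Ovol3KO had 2 calls in place of 4 with a pseudocount of 5, quantile normalization or limma-voom. With a pseudocount of 5, Ovol2b-Tg had 1 and EpiLC had 2. The Tg lines against TKO had 2 with a pseudocount of 0.1 or quantile normalization. Leaving out single libraries gave 2 to 4 calls for Ovol3KO, 1 to 2 for Ovol2a-Tg and for Ovol2b-Tg, 0 to 1 for TKO against Ovol2KO and 0 to 2 for the Tg lines against TKO. The causes were not tested.

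Quantile normalization moved the median of all genes from 0.148 to -0.01 for PGCLC against EpiLC in WT, with 1944 rises and 1099 falls becoming 1383 and 1518. For Ovol3KO against WT PGCLC it moved from -0.115 to 0.00, with 625 and 1225 becoming 866 and 933. Replicate numbers did not pair the samples: same-numbered deviations correlated at -0.21 to 0.20 over pairs of groups. With the replicate block the calls were the same in number in every comparison, for example 4 for Ovol3KO and 17 interactions. Low ESC reads limit Cnn1, Myl9 and Tagln, at 0 to 12, 0 to 5 and 2 to 23 reads a library.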
